A study of Mus musculus with 16 samples.

Results

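Syt10, Ifi202b, Kcnj14 and Rab6b are 4 genes for which arrays of one and the same group of mice lay at very different levels in ventricular tissue of the mouse heart. They were chosen by name, with the array levels described here already known, as the probes whose RefSeq accession maps to these symbols, so those levels are a description and not a test. They make up 4 of the 21154 genes with a probe and have 6 probes in all. Each array held the RNA of 1 female mouse, and the groups of 4 mice were 2-week lactating Npr1-/- (lactating KO), nulliparous Npr1-/- (nulliparous KO), 2-week lactating Npr1+/+ (lactating WT) and nulliparous Npr1+/+ (nulliparous WT). Npr1 encodes a receptor that binds natriuretic peptides made by the heart, and the study asked how its loss bears on the enlargement of the heart in lactation. Strain background and age are not given in the sources used here.

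Levels are log2 signals less the 75th percentile of the array's probes, so 0 marks that percentile. Arrays differed in that percentile, with a signal of 278 to 347 in lactating mice and of 165 to 221 in nulliparous mice other than nulliparous KO replicate 4, where it was 284. Nulliparous KO replicate 4 stood apart from its group: its mean correlation across genes was 0.986 with lactating arrays and 0.9751 with nulliparous ones, whereas the other nulliparous arrays had 0.9603 to 0.9667 with lactating arrays and 0.9827 to 0.9881 with nulliparous ones. Most group differences of Syt10, Ifi202b, Kcnj14 and Rab6b that rest on it are given with and without it. Marker sums, calls in gene lists and correlations between genes over 16 arrays are given only with it. The probe of Npr1 was well above background on 9 of 16 arrays, with levels of -4.26 to -3.63 in lactating KO, -4.15 to -3.71 in nulliparous KO, -4.68 to -3.53 in lactating WT and -4.47 to -3.62 in nulliparous WT, so it gave no check of the genotype labels. All 9 markers of ventricular cardiomyocytes were well above background on all 16 arrays.

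The 4 genes belong to unrelated families. Synaptotagmins, to which Syt10 belongs, are membrane proteins of vesicles that bind calcium and control their fusion; in mice SYT10 has been tied to the release of insulin-like growth factor from olfactory neurons. Ifi202b is an interferon-inducible member of the HIN-200 family of DNA-binding proteins, lacks the pyrin domain by which its relative AIM2 builds inflammasomes, and is known to be expressed at different levels in different mouse strains. Kcnj14 encodes an inwardly rectifying potassium channel subunit, and Rab6b a small GTPase of Golgi transport that is best known from neurons and is closely related to the widely expressed Rab6a. They lie on chromosomes 15, 1, 7 and 9.

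Each array was first placed by its own level. The largest step between neighbouring values, with at least 2 arrays on each side, was 5.72 log2 units for Ifi202b, 4.3 for Kcnj14, 3.5 for Syt10 and 1.57 for Rab6b, against a median of 0.185 over the 13971 tested genes without outlier values. These steps ranked 1, 6, 10 and 66. The pooled spread within groups (SD) was 2.44 for Syt10, 2.41 for Kcnj14, 2.26 for Rab6b and 2.07 for Ifi202b, which ranked 3, 5, 6 and 11, against a median of 0.202. Since the genes were chosen for these values, their ranks support nothing.

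A gene was taken to have 2 separated levels when this step was at least 1 log2 unit, exceeded the range of the arrays on either side and split at least 1 group. Ifi202b and Kcnj14 met that description, as did 161 of 13971 genes (1.15%). Syt10 and Rab6b did not, because single arrays stood between their high and low arrays. For Syt10 that array was nulliparous KO replicate 4, and without it the step was 5.81 and the description was met. With normexp background correction Syt10 also met it, with a step of 3.19. For Rab6b the arrays in between were 2 of lactating WT. Of the 161 genes, 98 were split only in that nulliparous KO replicate 4 sat with the lactating arrays, and without that array 68 genes (0.487%) met the description. Among those 68, the split ran through lactating KO in 45, nulliparous KO in 35, lactating WT in 24 and nulliparous WT in 10.

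**Figure D1:**
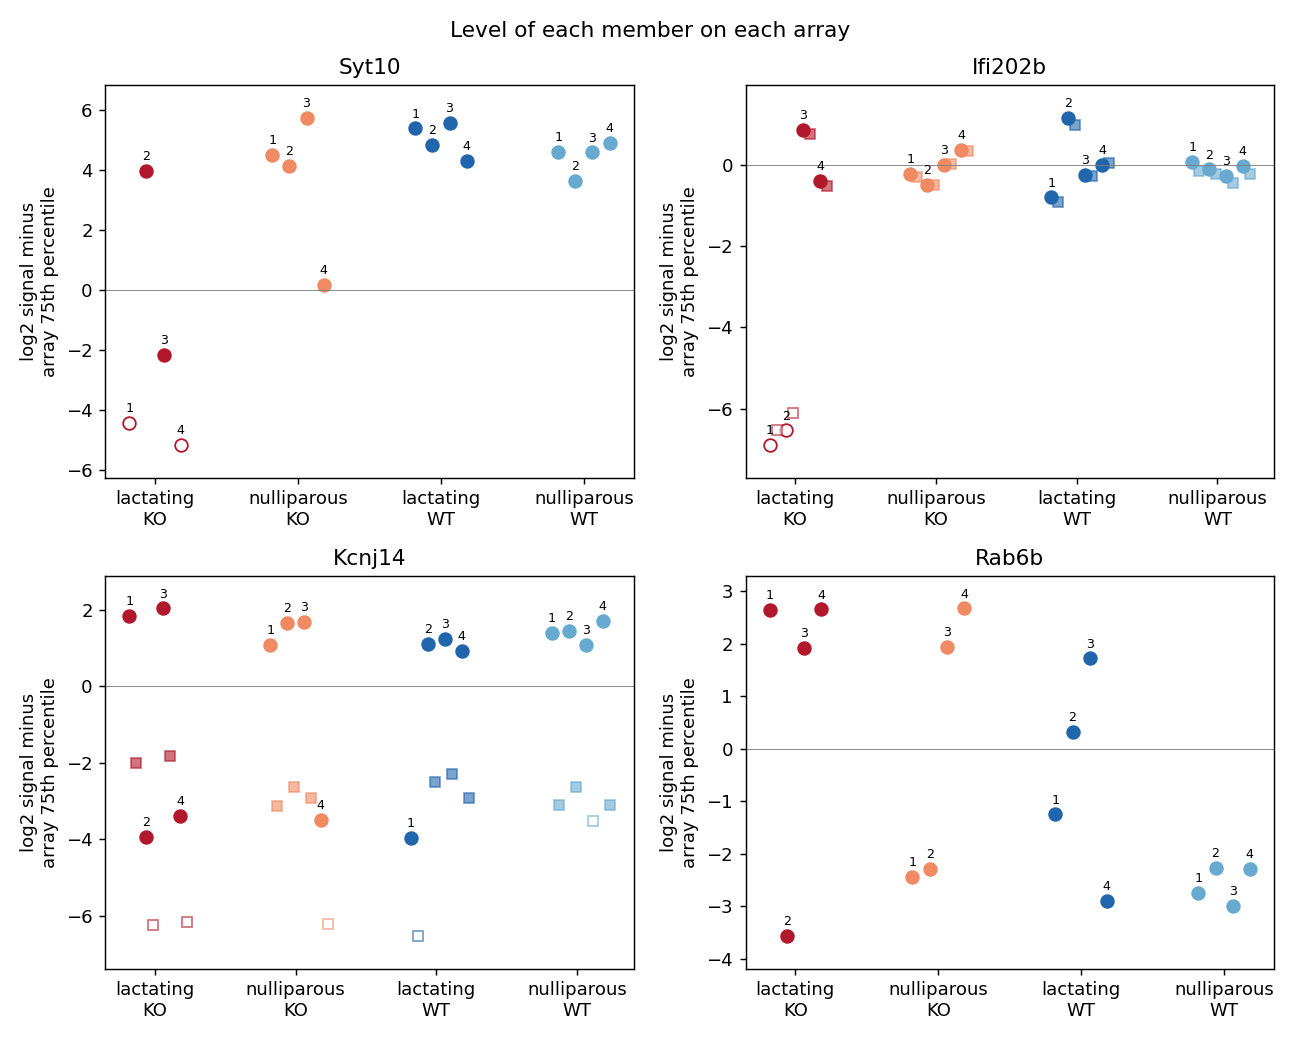
Level of each probe of the 4 genes on each array (y axis, log2 signal less the 75th percentile of the array), with groups on the x axis and replicate numbers above the points. Circles are the brightest probe and squares the second probe of Ifi202b and Kcnj14, and open symbols are values not well above background. The 4 nulliparous WT arrays lie close together in each panel, and the set of far arrays differs between genes, although single arrays such as replicate 2 of lactating KO are far for several of them.

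**Figure D2:**
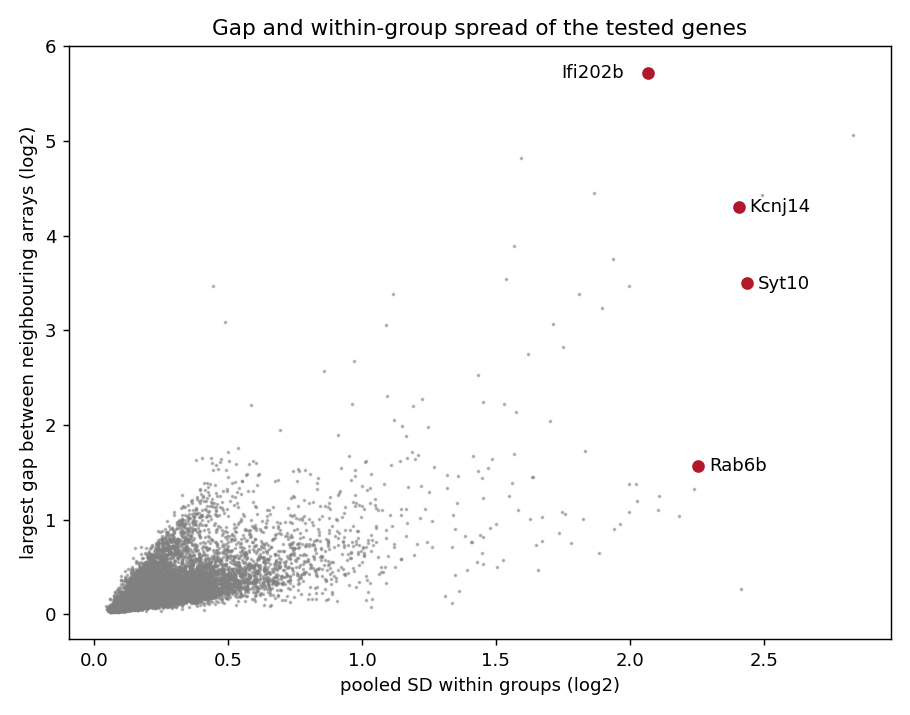
Largest step between neighbouring arrays (y axis, log2) against the pooled SD within groups (x axis, log2) for 13971 tested genes, each a grey point, with the 4 genes in red. Ifi202b has the largest step at 5.72, and Rab6b has a step of 1.57 at a spread like that of Kcnj14.

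Syt10 spanned the widest range of the 4 genes, 10.93 log2 units, from a signal of 8.7 to one of 14800. It has 1 probe on the array, for a gene on chromosome 15. In lactating KO its level was -4.45, 3.97, -2.16 and -5.18 in replicates 1 to 4. In nulliparous KO it was 4.52, 4.15, 5.75 and 0.16. Lactating WT arrays had 5.39, 4.84, 5.58 and 4.31, and nulliparous WT arrays had 4.60, 3.65, 4.59 and 4.92. All 8 wild-type arrays were thus high, lactating KO held 3 low arrays and 1 high array, and nulliparous KO held 3 high arrays and 1 in between. Replicates 1 and 4 of lactating KO were not well above background, with signals of 14 and 8.7, so their levels are upper bounds rather than measured amounts.

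The 250 bases before the annotated start of Syt10 are shown because its promoter and that of Rab6b are rich in CG pairs whereas that of Ifi202b is not. RefSeq sequences of build GRCm38.p6 were available for 3 of the 4 genes, and capitals mark each CG pair. The Syt10 stretch, chr15:89841861-89842110 on the minus strand, holds 32 CG pairs, more than 95.4% of 32851 promoters, whose median is 6.
Syt10: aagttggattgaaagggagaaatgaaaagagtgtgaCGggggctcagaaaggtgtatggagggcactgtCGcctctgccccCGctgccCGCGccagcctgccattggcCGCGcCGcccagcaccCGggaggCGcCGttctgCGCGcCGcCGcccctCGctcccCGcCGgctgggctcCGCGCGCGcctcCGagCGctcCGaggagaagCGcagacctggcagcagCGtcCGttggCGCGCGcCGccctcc
It has 3 copies of GGGCGG, counted on both strands, a motif present in 32.7% of all promoters of this length, and no TATAAA, which 12.4% hold. Such matches describe letters only.

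In the comparison of lactating with nulliparous knockout mice, Syt10 averaged -1.96 ± 4.15 in lactating KO, where 2 of 4 arrays measured it, and 3.64 ± 2.42 in nulliparous KO (SD, n = 4 each). The difference was -5.60 ± 1.57 (SE), with a 95% interval of -8.95 to -2.25 and a limma adjusted p of 0.0108. In that comparison 44.2% of 14059 tested genes were called at an adjusted p under 0.05, and 18.5% were called lower, so nothing is read from this one call. Of the called genes 58.1% were higher in lactating KO, or 79.3% with arrays centred on their median. The 2 groups overlapped, since lactating KO replicate 2 at 3.97 lay above nulliparous KO replicate 4 at 0.16. Within slide 1 the difference was -4.57 and within slide 2 it was -6.63. Without nulliparous KO replicate 4 it was -6.76 (adjusted p = 0.00246), and a fit of only these 2 groups gave an adjusted p of 0.062 for the same difference.

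Between lactating KO and lactating WT the 2 groups of Syt10 did not overlap, but the difference did not pass the test. Syt10 averaged -1.96 ± 4.15 in lactating KO and 5.03 ± 0.58 in lactating WT (SD, n = 4 each), a difference of -6.99 ± 1.57 (SE) with a limma adjusted p of 0.109 and a 95% interval of -10.34 to -3.63. It was -5.36 within slide 1 and -8.62 within slide 2. Only 0.199% of tested genes were called in that comparison. Without lactating KO replicate 2, the 1 high array of its group, the difference was -8.96 (adjusted p = 0.00108), and with array weights it was -7.30 (adjusted p = 0.0164). Nulliparous KO less nulliparous WT gave -0.80 (adjusted p = 0.892), or 0.37 without nulliparous KO replicate 4, in a comparison with 0.0996% of genes called. Lactating WT less nulliparous WT gave 0.59 (adjusted p = 0.777), where 50.4% of genes were called. The difference between the 2 lactation effects, knockout less wild type, was -6.19 ± 2.22 (SE, adjusted p = 0.655), with 0.0925% of genes called, and was -7.35 (adjusted p = 0.32) without nulliparous KO replicate 4.

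Other synaptotagmins did not show such steps. Of 23 synaptotagmins and relatives, 22 had a probe and 8 passed the filter, and Syt10 alone of these 8 had a step above 1 log2 unit. Sytl3 had 1 array apart, which that step cannot show: nulliparous WT replicate 3 read 1.61 and the other 15 arrays -3.10 to -2.21, for an SD within groups of 1.04. Syt11 fell in lactating WT by 0.28 relative to nulliparous WT (limma adjusted p = 0.0431), the 1 call among the 8 in that comparison, and Syt10 was the 1 call in lactating against nulliparous KO. None of the 8 was called in the other 3 comparisons. The median difference over the 8 was -0.12 for lactating against nulliparous KO, against 0.06 over all tested genes. Syt1, the main calcium sensor of neuronal synapses, was not well above background on any array.

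Likeness between genes was measured as Pearson's r of the deviations from the 4 group means over the 16 arrays. It describes these arrays, which share slides and mice, and carries no test. Prm1, a protamine that packs sperm DNA and lies on chromosome 16, was the gene most like Syt10, with r = 0.95 and Spearman's rho = 0.98. Its level was -6.52, -2.03, -5.70 and -6.26 in lactating KO and -1.59, -2.25, -0.98 and -4.83 in nulliparous KO. In lactating WT it was -0.60, -1.15, -0.55 and -2.26, and in nulliparous WT -1.58, -2.30, -1.92 and -0.89. The order of the arrays was nearly that of Syt10. The values of -6.52, -5.70 and -6.26 in lactating KO and -4.83 in nulliparous KO were not measured amounts. They lay below the lowest level well above background on their arrays, which was -4.65, -4.75, -4.27 and -4.29. On the 11 arrays on the high side of the Syt10 step whose group had over 1 such array, r was still 0.90.

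Tox4, a DNA-binding HMG-box protein on chromosome 14, followed with r = 0.95, but with r = -0.12 over those 11 arrays. Its level was -1.68, 1.61, -0.48 and -1.52 in lactating KO and 0.94 in nulliparous KO replicate 4, and 2.80 to 3.52 on the other 11 arrays. Aass, an enzyme of lysine breakdown, had r = -0.89, and Ifi30, a lysosomal thiol reductase, had r = -0.87. The fifth gene was AU018091, with r = 0.86. None of the 25 genes most like Syt10 lay on its own chromosome 15, which held 4.03% of the genes compared, and none of the 563 genes compared there reached an r of 0.8 in either direction with its brightest probe. A probe of Ywhaz, on chromosome 15, had r = 0.90. The 7 tested genes within 10 places of Syt10 in gene order, among them Alg10b (r = 0.48), Rabl2 (r = -0.29) and Arsa (r = -0.28), had a median absolute r of 0.23. Among probes of any kind, the most alike was one designed for the interval chr4:35106125-35127700 of build mm9, with r = 0.98.

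Markers of nerve-associated cells moved with Syt10 in part. The summed linear level of 6 Schwann cell markers, 5 of which were well above background on all 16 arrays, ran from 59.3 to 140 in lactating KO and 106 to 448 in nulliparous KO. It ran from 84.1 to 101 in lactating WT and 273 to 303 in nulliparous WT. Its r with Syt10 was 0.64, and the sum was also low in lactating WT, where Syt10 was high. For 9 neuronal markers r was 0.41, and Syt1, Nefl, Nefm and Chrna3 were well above background on no array. Fewer cells of a type and less RNA per cell cannot be told apart in such tissue samples, and the part of these cells in the Syt10 levels was not tested.

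Ifi202b had the clearest pair of levels, with 2 arrays far below all others. In lactating KO its level was -6.89, -6.53, 0.85 and -0.40 in replicates 1 to 4. In nulliparous KO it was -0.24, -0.51, -0.01 and 0.35. Lactating WT arrays had -0.81, 1.15, -0.25 and -0.02, and nulliparous WT arrays had 0.06, -0.12, -0.29 and -0.03. Replicates 1 and 2 of lactating KO were the low ones, and the other 14 arrays lay within 1.96 log2 units of each other. Neither low array was well above background, with signals of 2.57 and 3.2 against 143 or more on the others, so the step of 5.72 is one to a level that was not measured.

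A second probe of Ifi202b, designed for another RefSeq transcript, gave the same picture. It read -6.51, -6.10, 0.76 and -0.52 in lactating KO and -0.30, -0.51, 0.01 and 0.33 in nulliparous KO. It read -0.91, 0.98, -0.27 and 0.03 in lactating WT and -0.16, -0.23, -0.46 and -0.23 in nulliparous WT. The probes correlated at r = 0.999 over the 16 arrays and differed by -0.42 to 0.23 on any array, and the step of the second probe was 5.19. Genes of this family are close in sequence, probe sequences were not used here, and signal shared with a relative was not tested. After normexp background correction the step was 2.02.

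The Ifi202b stretch before the start, chr1:173982845-173983094 on the minus strand of GRCm38.p6, holds 3 CG pairs, which is more than 29.0% of promoters have.
Ifi202b: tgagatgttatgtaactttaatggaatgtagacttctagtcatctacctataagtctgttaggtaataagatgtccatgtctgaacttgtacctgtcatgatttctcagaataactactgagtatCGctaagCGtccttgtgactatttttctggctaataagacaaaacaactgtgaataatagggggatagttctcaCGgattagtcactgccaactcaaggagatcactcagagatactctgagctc
Neither TATAAA nor GGGCGG was found in it on either strand.

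No group difference of Ifi202b was called. It averaged -3.24 ± 4.04 in lactating KO, where 2 of 4 arrays measured it, and -0.10 ± 0.37 in nulliparous KO (SD, n = 4 each). The difference of -3.14 ± 1.33 (SE) had a limma adjusted p of 0.0687, or was -2.99 (adjusted p = 0.11) without nulliparous KO replicate 4. It was -6.33 within slide 1 and 0.05 within slide 2, since both low arrays were on slide 1. Blocking on slide gave an adjusted p of 0.0481, and without lactating KO replicate 3 or replicate 4, both at the high level, the difference was -4.50 (adjusted p = 0.00853) or -4.09 (adjusted p = 0.0282). Lactating KO less lactating WT, at 0.02 ± 0.82 (SD, n = 4), gave -3.26 (adjusted p = 0.475), or -6.88 within slide 1 and 0.36 within slide 2. The other comparisons gave 0.11 for lactating less nulliparous WT (adjusted p = 0.954), -0.01 for nulliparous KO less nulliparous WT (adjusted p = 0.998) and -3.25 for the difference between lactation effects (adjusted p = 0.812).

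The closest relatives in the genome did not show 2 levels. The HIN-200 genes form a cluster on chromosome 1, and 10 of 17 listed family members had a probe, 7 of which passed the filter. Ifi208, 10 places from Ifi202b in gene order, had r = -0.86: its level was 1.20, 1.31, 0.63 and 0.90 in lactating KO and 0.68 to 0.76 in nulliparous KO. It was 0.81 to 0.89 in lactating WT and 0.59 to 0.81 in nulliparous WT, so the 2 arrays lowest for Ifi202b were the highest for Ifi208, by a small margin. Ifi211, 2 places away, had r = -0.75, with 2.18, 1.36, -0.62 and 0.38 in lactating KO, but r = -0.44 without the 2 arrays whose Ifi202b deviations were farthest from the median. Aim2, whose protein senses cytosolic DNA and is held back by the Ifi202b product, had r = 0.70 and was at -3.97, -4.03, -2.56 and -2.85 in lactating KO. Ifi204, Ifi207 and Mndal had r of -0.03, -0.19 and -0.08.

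Of the 7 HIN-200 genes, 3 were called lower in lactating KO than in nulliparous KO, against 18.5% of all tested genes, and none higher. They were Aim2 (-1.48, limma adjusted p = 0.00407), Ifi204 (-0.56, adjusted p = 0.0304) and Mndal (-0.49, adjusted p = 0.0456). Relative to nulliparous WT, lactating WT had Aim2 (-1.11, adjusted p = 0.0156) and Mndal (-1.17, adjusted p = 0.000286) lower and Ifi211 higher (1.77, adjusted p = 0.0105). None was called in the comparisons of genotypes or in their interaction. The median over the 7 was -0.56 for lactating against nulliparous KO and 0.09 for lactating against nulliparous WT, where all tested genes had 0.06 and 0.10.

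Of 15 interferon-response genes, 13 were tested, and Bst2 among them had r = -0.67 with Ifi202b. In lactating against nulliparous KO 6 of the 13 were called higher and none lower, among them Ifi27l2a (1.43, limma adjusted p = 0.00133), Oas1a (1.24, adjusted p = 0.00529) and Irf7 (1.07, adjusted p = 0.000769). Of all tested genes 25.6% were called higher there. In lactating against nulliparous WT 2 of 13 were called, both higher, against 31.9% of all tested genes. The list's medians were 0.51 in the knockout and 0.17 in the wild type.

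The genes most like Ifi202b lay elsewhere. They were 4833427F10Rik on chromosome 17 (r = 0.92), Ocel1 on chromosome 8 (r = 0.92), Gm10318 on chromosome 10 (r = -0.88), Calr3, a calreticulin-like gene on chromosome 8 (r = 0.88), and Ifi208. 4833427F10Rik read -6.68, -6.27, -0.87 and -2.06 in lactating KO and -2.38 to -0.68 in nulliparous KO. It read -1.37 to -0.16 in lactating WT and -1.24 to -0.63 in nulliparous WT, so the same 2 arrays stood below the rest. On those 2 arrays 4833427F10Rik lay below the lowest level well above background, -4.65 and -4.72, and was not measured. Ocel1 read 2.87, 2.52, 4.76 and 4.80 in lactating KO and 3.94 to 4.72 in nulliparous KO. It read 4.21 to 4.88 in lactating WT and 4.48 to 4.75 in nulliparous WT. These likenesses rest on 2 arrays: over the 14 others r was 0.25 for 4833427F10Rik, 0.35 for Ocel1, 0.15 for Calr3 and -0.28 for Ifi208. Gm10318 had -0.64.

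Chromosome 8 held 11 of the 25 genes most like Ifi202b, although it holds 5.22% of the genes compared, and 2 were on chromosome 1 with Ifi202b. Of those 11, 8 lay in a stretch of 128 annotated genes of chromosome 8 from Zfp868 to B3gnt3, 74 of them tested, out of 2381 on the chromosome. The 11 ran in both directions, from r = -0.80 for Haus8 and Map1s to 0.92 for Ocel1. This count was made after the values were seen.

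**Figure D3:**
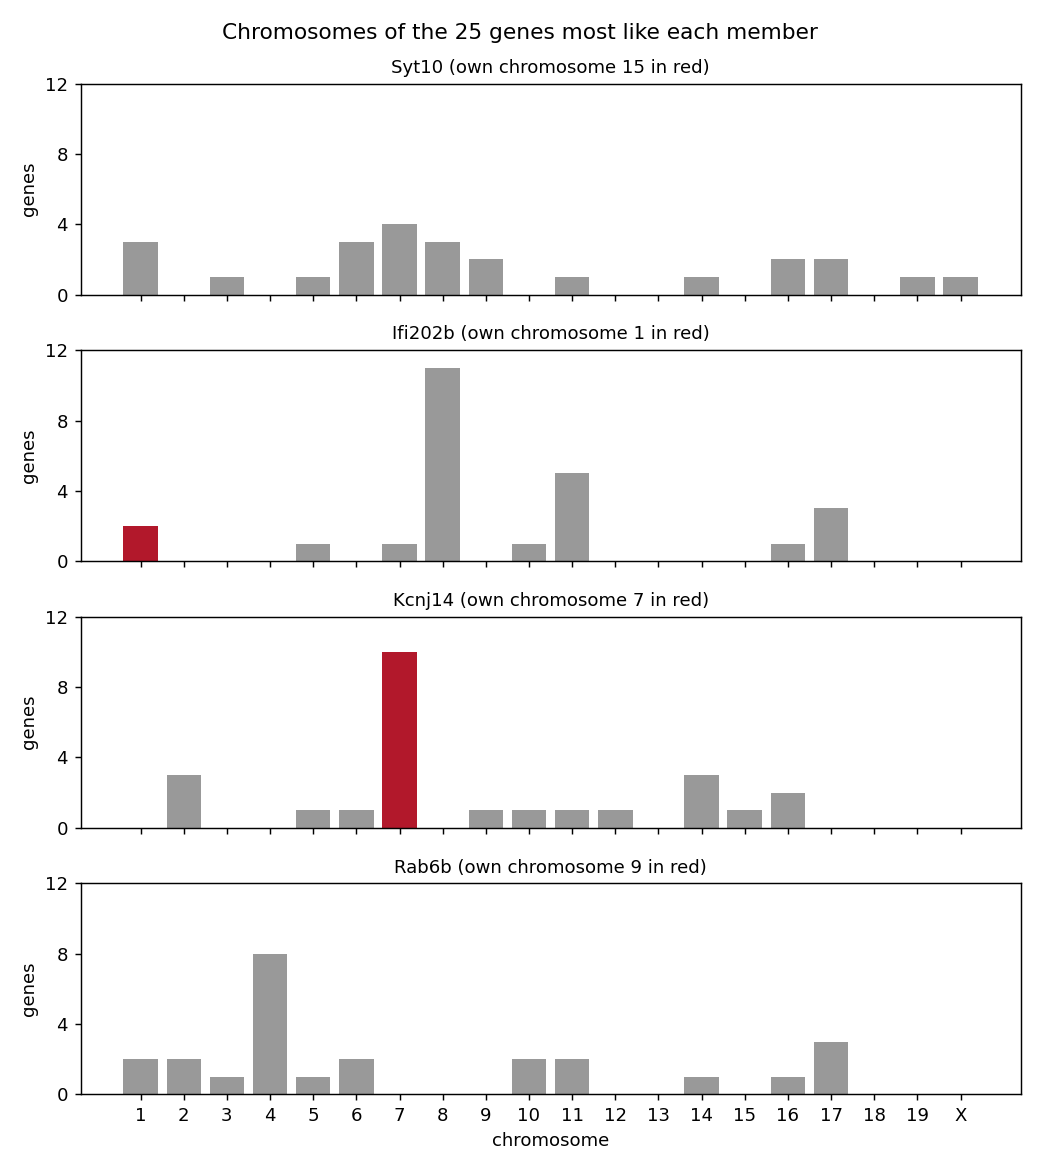
Number of genes (y axis) on each chromosome (x axis) among the 25 genes most like each of the 4 genes, with the gene's own chromosome in red. Chromosome 8 holds 11 for Ifi202b, chromosome 7 holds 10 for Kcnj14 and chromosome 4 holds 8 for Rab6b, and only for Kcnj14 is the leading chromosome its own.

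Kcnj14 had high and low arrays in 3 groups. In lactating KO its level was 1.83, -3.95, 2.03 and -3.39 in replicates 1 to 4. In nulliparous KO it was 1.08, 1.66, 1.68 and -3.50. Lactating WT arrays had -3.96, 1.10, 1.23 and 0.91, and nulliparous WT arrays had 1.38, 1.45, 1.07 and 1.71. Of the 16 arrays 12 thus lay within 1.11 log2 units and the other 4 within 0.57, with 4.3 between them. The low arrays were 2 of lactating KO, 1 of nulliparous KO and 1 of lactating WT. Every array was well above background with this probe, from a signal of 18.4 to one of 1420, so the low level was measured here.

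The second Kcnj14 probe, for the same RefSeq transcript, was dimmer and split the arrays in the same way. It read -2.01, -6.25, -1.82 and -6.18 in lactating KO and -3.13, -2.65, -2.92 and -6.22 in nulliparous KO. It read -6.53, -2.5, -2.30 and -2.93 in lactating WT and -3.11, -2.65, -3.52 and -3.12 in nulliparous WT. It was well above background on 11 of 16 arrays and on none of the 4 low ones. Its step was 2.66, and the probes correlated at r = 0.976, or 0.992 for deviations from group means. The gap between the probes ran from 2.30 to 4.83 log2 units, smallest where the dim probe reached background.

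Group means of Kcnj14 did not differ beyond the spread within groups. It averaged -0.87 ± 3.24 in lactating KO, 0.23 ± 2.5 in nulliparous KO, -0.18 ± 2.52 in lactating WT and 1.40 ± 0.26 in nulliparous WT (SD, n = 4 each). Lactating KO less nulliparous KO was -1.10 (limma adjusted p = 0.588, 95% interval -4.42 to 2.21), or -2.34 (adjusted p = 0.204) without nulliparous KO replicate 4 and -0.07 (adjusted p = 0.975) without lactating KO replicate 2, and lactating WT less nulliparous WT was -1.58 (adjusted p = 0.417, interval -4.89 to 1.73), or -0.32 (adjusted p = 0.874) without replicate 1, the low array of lactating WT. Lactating KO less lactating WT was -0.69 (adjusted p = 0.975), turning to 0.34 or 0.15 without either low array of lactating KO. Nulliparous KO less nulliparous WT was -1.17 (adjusted p = 0.835), or 0.07 without nulliparous KO replicate 4. The difference between lactation effects was 0.48 (adjusted p = 0.975), or -0.76 (adjusted p = 0.933) without nulliparous KO replicate 4.

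The gene most like Kcnj14 was another inward rectifier, Kcnj11, the pore subunit of the cardiac ATP-sensitive potassium channel, in the opposite direction. Kcnj11 lies 14 places from Kcnj14 on chromosome 7 and had r = -0.96 (rho = -0.90). Its level was 1.23, 2.17, 1.29 and 2.08 in lactating KO and 1.28, 1.33, 1.12 and 1.75 in nulliparous KO. In lactating WT it was 2.35, 1.43, 1.74 and 1.55, and in nulliparous WT 1.25, 1.29, 1.23 and 1.18. Within each of the 3 split groups the arrays low for Kcnj14 were the highest for Kcnj11. On the 12 arrays high for Kcnj14, r was -0.04, so the likeness lay between the 2 levels and not within the high one.

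Several other genes of that neighbourhood did the same. Of the 25 genes most like Kcnj14, 10 were on chromosome 7, which holds 8.07% of the other genes. Of those 10, 8 lay within a stretch of 52 annotated genes, 30 of them tested, out of 4162 on the chromosome. Beside Kcnj11 these were Ush1c (r = 0.92), a scaffold protein of sensory hair bundles, Bcat2 (r = 0.91), the mitochondrial branched-chain aminotransferase, Car11 (r = 0.85), Gys1 (r = -0.88), muscle glycogen synthase, Abcc8 (r = -0.86), the sulfonylurea receptor that pairs with Kcnj11, Ftl1 (r = -0.85), ferritin light chain, and Tmem143 (r = -0.85). Of the 8, 3 ran with Kcnj14 and 5 against it. The ends of the stretch, Gys1 and Ush1c, were set by the alike genes themselves, so its length was drawn from these same values. Of the 1128 other tested genes on chromosome 7, 0.887% had an absolute r of at least 0.8, against 0.202% elsewhere. The 2 further ones, Il18bp and Slc5a11, lay 1126 and 1772 places away.

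Ush1c read 3.12, 1.36, 3.26 and 1.21 in lactating KO and 3.56, 3.23, 3.90 and 1.32 in nulliparous KO. It read 1.62, 2.56, 2.32 and 2.73 in lactating WT and 2.42 to 3.04 in nulliparous WT. All 4 arrays low for Kcnj14 were the 4 lowest for Ush1c. Bcat2 read 5.51, 3.94, 5.47 and 3.57 in lactating KO and 5.0 in nulliparous KO replicate 4, against 5.70 to 5.91 on the other arrays of that group. It read 4.25 in lactating WT replicate 1, against 4.85 to 4.96 on the rest of that group, and 5.59 to 5.69 in nulliparous WT. Off chromosome 7, Abhd4 on chromosome 14 (r = -0.91) and Mal, a myelin and lymphocyte protein gene on chromosome 2 (r = -0.90), completed the 5 most alike.

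Of the 20 genes within 10 places of Kcnj14, 11 were tested, with a median absolute r of 0.54, against 0.19 to 0.26 around the other 3 genes. The immediate neighbours were Cyth2 (r = -0.24) on one side and Grwd1 (r = 0.77) on the other, and none of the 11 had 2 separated levels. Within 100 places, 8 of 82 tested genes had an absolute r of at least 0.8 around Kcnj14, against 1 of 68 around Ifi202b, 0 of 63 around Syt10 and 0 of 67 around Rab6b. Genotypes of the mice on chromosome 7 were not measured, and whether alleles that segregate in the colony underlie this pattern was not tested.

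**Figure D4:**
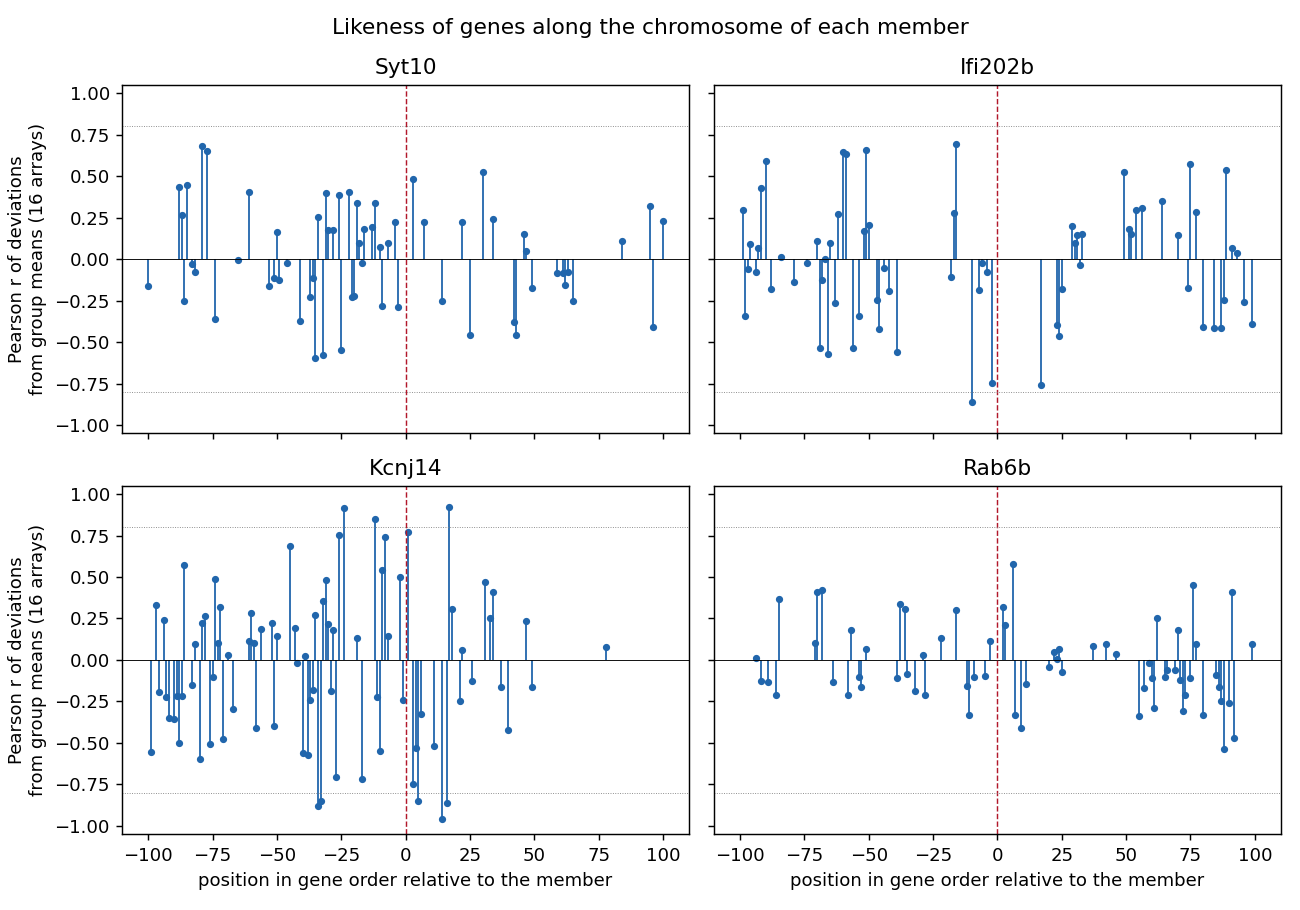
Pearson r of deviations from group means over 16 arrays (y axis) for each tested gene within 100 places of the named gene in gene order (x axis, genes), with the named gene at the dashed line and an absolute r of 0.8 at the dotted lines. Around Kcnj14, 8 genes pass the dotted lines, some upward and some downward, whereas 1 does so around Ifi202b and 0 around Syt10 and Rab6b.

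Among the inward rectifiers, 15 of 15 had a probe and 11 were tested, and Kcnj14 alone of these had 2 separated levels. In lactating against nulliparous KO, Kcnj15 was called higher (0.89, limma adjusted p = 0.0495), and Kcnj2, the main carrier of the ventricular inward rectifier current (-1.04, adjusted p = 0.000617), and Kcnj13 (-0.48, adjusted p = 0.0245) lower. In lactating against nulliparous WT, Kcnj4 was called higher (1.80, adjusted p = 0.0241), and Kcnj2 (-1.42, adjusted p = 6.42e-05) and Kcnj5, an atrial G-protein-gated subunit (-0.79, adjusted p = 0.00143), lower. None was called between genotypes or in the interaction. The list's medians were 0.05 and -0.06 for lactation in knockout and wild type.

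A list of 10 genes that differ in level or copy number between mouse strains was also read, 9 of which were tested. None of the 9 had 2 separated levels. That description needs a step of at least 1 log2 unit, so it could not show smaller splits within a group. In lactating WT, for instance, Glo1 read 5.54, 4.19, 5.46 and 3.87 in replicate order, and Alad read 3.84, 2.83, 3.76 and 2.91. Hdhd3 read 0.99, 0.12, 1.34 and 0.23 on the same arrays. With Kcnj14 only Entpd4, on chromosome 14, reached an absolute r of 0.8 (r = -0.87). Entpd4 read 4.96, 5.95, 4.92 and 5.51 in lactating KO, 4.88, 4.91, 5.01 and 5.51 in nulliparous KO, 5.69, 5.48, 5.06 and 4.91 in lactating WT and 4.66 to 4.94 in nulliparous WT. With Rab6b, Glo1 had r = 0.63. Ide (-0.68) and Fgfbp3 (-0.54) were called lower in lactating than in nulliparous WT, against 18.5% of all tested genes, and none of the 9 in the other comparisons. The list was drawn up with results of these data known.

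Rab6b varied most evenly, with levels spread from -3.56 to 2.67. In lactating KO it was 2.64, -3.56, 1.92 and 2.65 in replicates 1 to 4. In nulliparous KO it was -2.44, -2.28, 1.93 and 2.67. Lactating WT arrays had -1.25, 0.32, 1.72 and -2.89, and nulliparous WT arrays had -2.74, -2.26, -2.99 and -2.28. All nulliparous WT arrays were low, lactating KO had 3 high arrays and 1 low array, nulliparous KO was split 2 and 2, and lactating WT covered the ground between. Its 1 probe cleared background everywhere, on 16 of 16 arrays, with signals of 25.1 to 1990. With a step of 1.57 inside ranges of 2.31 below and 2.35 above it, Rab6b is better described as a gene of wide spread than as one at 2 levels.

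The stretch before the start of Rab6b, chr9:103111824-103112073 on the plus strand of GRCm38.p6, holds 40 CG pairs, more than 98.7% of promoters have.
Rab6b: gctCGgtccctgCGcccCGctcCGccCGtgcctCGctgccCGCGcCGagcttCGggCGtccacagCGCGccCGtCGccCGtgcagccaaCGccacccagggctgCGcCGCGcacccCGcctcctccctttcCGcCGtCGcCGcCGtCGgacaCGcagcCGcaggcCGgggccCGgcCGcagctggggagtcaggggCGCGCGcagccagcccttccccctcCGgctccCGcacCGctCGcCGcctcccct
It has 1 GGGCGG and no TATAAA, and it was the richest in CG pairs of the 3 printed here.

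No group difference of Rab6b was called. Lactating KO averaged 0.91 ± 3.00, nulliparous KO -0.03 ± 2.71, lactating WT -0.52 ± 1.99 and nulliparous WT -2.57 ± 0.36 (SD, n = 4 each). Nulliparous KO less nulliparous WT was 2.54 ± 1.45 (SE, limma adjusted p = 0.626), with 0.14 within slide 1 and 4.93 within slide 2, where both high nulliparous KO arrays were, and was 1.64 (adjusted p = 0.782) without nulliparous KO replicate 4. Lactating WT less nulliparous WT was 2.04 (adjusted p = 0.258), lactating KO less nulliparous KO was 0.94 (adjusted p = 0.623), or 1.84 (adjusted p = 0.32) without nulliparous KO replicate 4, and lactating KO less lactating WT was 1.44 (adjusted p = 0.874). Without replicate 2, the low array of lactating KO, these last were 2.43 (adjusted p = 0.13) and 2.93 (adjusted p = 0.447). With array weights, lactating KO less nulliparous KO was 3.05 (adjusted p = 0.0496). The difference between lactation effects was -1.10 (adjusted p = 0.942), or -0.20 (adjusted p = 0.983) without nulliparous KO replicate 4.

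The 5 probes most like Rab6b were none of a named gene. They were designed for 2 nested intervals of chromosome 17 in build mm9, chr17:32044823-32045974 with 3 probes (r = 0.94, 0.94 and 0.93) and chr17:32035750-32056000 with 2 (r = 0.92 each). The first of them read 5.19, -4.62, 2.47 and 4.13 in lactating KO and -5.28, -4.30, 3.37 and 2.75 in nulliparous KO. It read 4.23, 4.30, 4.95 and 2.32 in lactating WT and -4.26, -3.82, -3.89 and -4.29 in nulliparous WT. Each of the 5 was well above background on 9 of 16 arrays. The probe was thus high on the arrays high for Rab6b and also on replicates 1 and 4 of lactating WT, where Rab6b read -1.25 and -2.89.

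Among named genes, Masp2, a protease of the complement system's lectin pathway on chromosome 4, was most like Rab6b, in the opposite direction (r = -0.91, rho = -0.95). It read -2.57, -0.66, -2.37 and -3.07 in lactating KO and 0.86, 0.05, -1.81 and -2.15 in nulliparous KO. In lactating WT it read -0.54, -0.69, -2.72 and 0.54, and in nulliparous WT 0.70, -0.32, 0.96 and 0.88. In lactating WT too, arrays higher for Rab6b were lower for Masp2. On the 8 arrays on the low side of the Rab6b step whose group had over 1 such array, r was -0.72. Most of those arrays were nulliparous. Cep170, a centrosomal protein (r = 0.88), Pttg1, the securin that holds sister chromatids together (r = 0.88), and Cytip (r = 0.85) were also among the 5 most alike.

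Pttg1 had 2 separated levels of its own. It read 5.37, 1.53, 6.20 and 5.27 in lactating KO and 1.74, 1.88, 6.31 and 6.43 in nulliparous KO. It read 6.53, 5.37, 6.33 and 5.27 in lactating WT and 2.20, 1.92, 1.68 and 1.84 in nulliparous WT. Its 9 high arrays were those high for the chromosome 17 interval probe.

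None of the 25 genes most like Rab6b lay on its own chromosome 9, and 8 lay on chromosome 4, which holds 6.33% of the genes compared. These 8, among them Fbxo42, Epha2, Zfp992, Zfp981, Zfp534, Masp2 and Rbp7, fell within a stretch of 259 annotated genes, 71 of them tested, out of 2923 on that chromosome. Of the 8, 5 ran with Rab6b and 3 against it by their brightest probes, but another probe of Zfp981, one of the 5, had r = -0.87. The 8 tested genes near Rab6b itself had r of -0.41 for Bfsp2 to 0.58 for Topbp1, and none had 2 separated levels. The count on chromosome 4 was made after the values were seen.

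**Figure D5:**
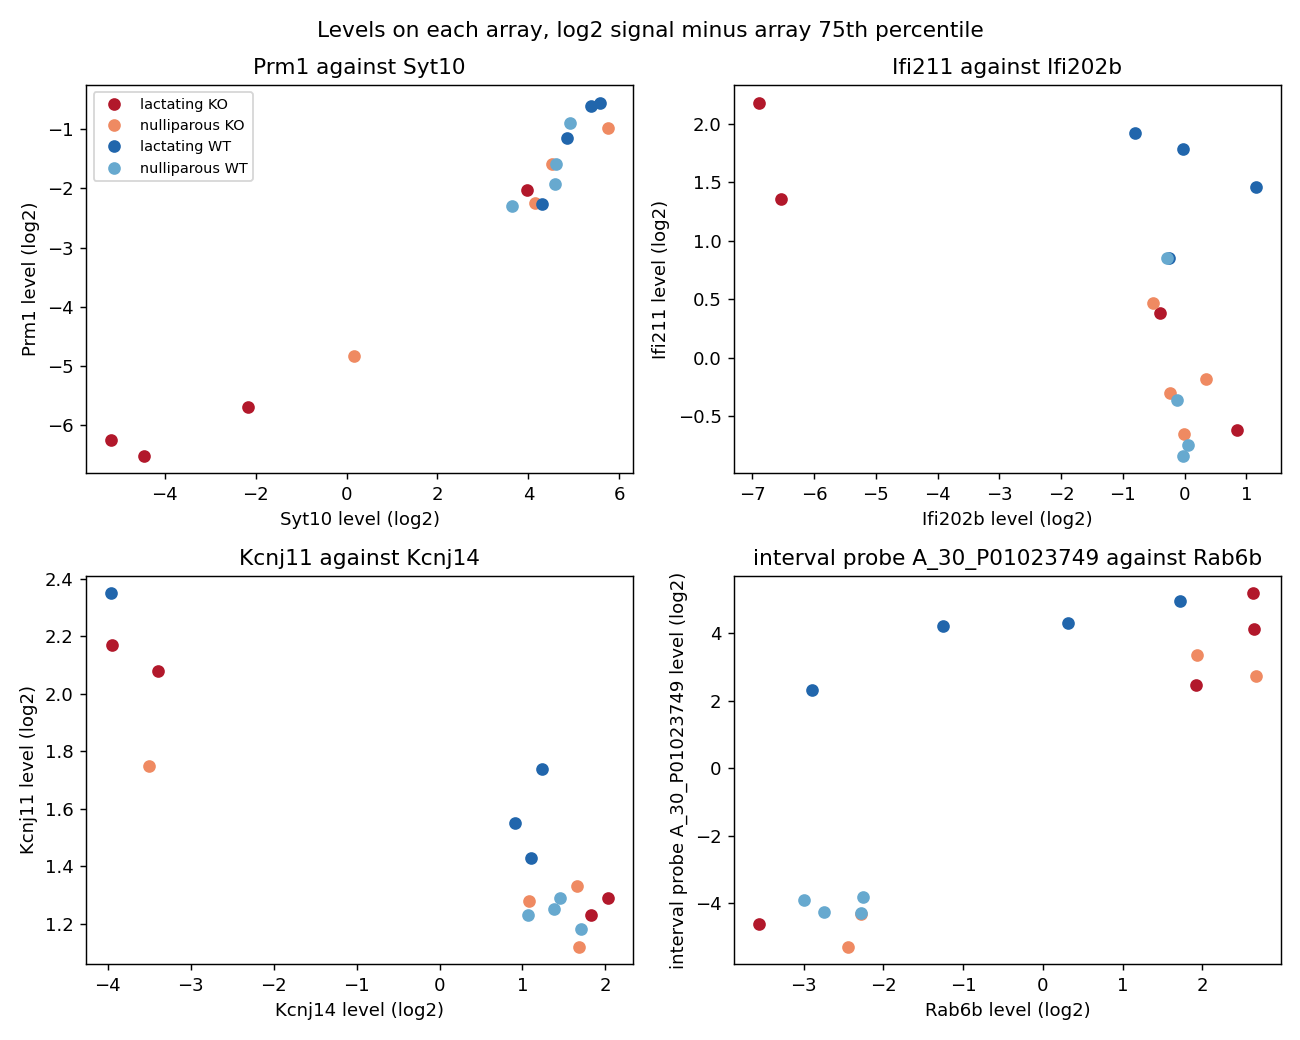
Level of another gene or probe on each array (y axes) against the level of Syt10, Ifi202b, Kcnj14 or Rab6b (x axes). Levels are log2 signal less the 75th percentile of the array, with 1 point per array coloured by group. Prm1, Kcnj11 and the interval probe are among the most alike, and Ifi211 is a neighbour of Ifi202b in gene order. Prm1 follows Syt10 along a line, Kcnj11 is high on the 4 arrays low for Kcnj14, Ifi211 overlaps over both levels of Ifi202b, and the interval probe is high on 2 lactating WT arrays where Rab6b is not.

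The partners of Rab6 that carry it along microtubules or tether it to the Golgi did not share the spread of Rab6b. All 16 listed genes, Rab6b included, were tested, and the next widest SD within groups was 0.69 for Kif20a. Of the 16, 6 were called higher and 3 lower in lactating against nulliparous KO, against 25.6% and 18.5% of all tested genes. Kif20a, a mitotic kinesin first described as a Rab6 partner, was higher (1.97, limma adjusted p = 0.00349), as were Gcc2, a golgin (0.87, adjusted p = 0.00396), and Rab6a itself (0.33, adjusted p = 0.00954). Rabgap1, a GTPase-activating protein, was lower (-2.63, adjusted p = 0.000473), as were Erc1 (-1.0, adjusted p = 0.000775) and Golgb1 (-0.22, adjusted p = 0.0221). In lactating against nulliparous WT 6 were called higher and 2 lower, with Rab6a at 0.50 (adjusted p = 0.000551) and Rabgap1 at -3.03 (adjusted p = 8.43e-05). None was called between genotypes or in the interaction. The medians were 0.19 and 0.20 for lactation in knockout and wild type, where all tested genes had 0.06 and 0.10. The closest relative, Rab6a, had an SD within groups of 0.11.

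Markers of other cells moved with Rab6b to a degree. The summed level of 6 macrophage markers, all well above background on all 16 arrays, had r = 0.60 with Rab6b and ran from 40.3 to 48.6 in lactating KO, 17.7 to 33.3 in nulliparous KO, 36.7 to 43.7 in lactating WT and 19.6 to 23.3 in nulliparous WT. That of 4 atrial cardiomyocyte markers, 2 of them well above background on all 16 arrays, had r = -0.65. It ran from 478 to 1140 in lactating KO, 223 to 719 in nulliparous KO, 409 to 758 in lactating WT and 198 to 360 in nulliparous WT. That sum is mostly Nppa, the atrial natriuretic peptide gene, whose own r was -0.65 and which was called higher in lactating than in nulliparous KO (1.01, limma adjusted p = 0.0265). The other 3 were called lower there, Myl7 at -3.31 (adjusted p = 0.0286), Myl4 at -1.51 (adjusted p = 0.0103) and Sln at -3.67 (adjusted p = 0.0103), and had r of -0.35, -0.40 and -0.46 with Rab6b. Their part in the Rab6b levels was not tested.

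The 4 genes did not split the arrays alike. Over the 16 arrays r was -0.65 between Syt10 and Rab6b, 0.38 between Ifi202b and Rab6b, -0.37 between Syt10 and Ifi202b, 0.14 between Kcnj14 and Rab6b, 0.12 between Ifi202b and Kcnj14 and -0.02 between Syt10 and Kcnj14. These values rest on few arrays. Without the 2 arrays farthest from the median in either gene of a pair, r was -0.23 (farthest for Syt10) or -0.34 (for Rab6b) between Syt10 and Rab6b. It was 0.67 (farthest for Ifi202b) or 0.13 (for Rab6b) between Ifi202b and Rab6b, and -0.04 (farthest for Syt10) or -0.83 (for Ifi202b) between Syt10 and Ifi202b. The pairs with Kcnj14 then had r from -0.32 to 0.39. Lactating KO replicate 1 was low for Syt10 and Ifi202b and high for Kcnj14 and Rab6b, and replicate 2 was low for Ifi202b, Kcnj14 and Rab6b and high for Syt10. Replicate 3 was low for Syt10 alone, and replicate 4 for Syt10 and Kcnj14. Each of the 4 lactating KO arrays thus had a combination of its own. The nulliparous WT arrays were at one level for each gene, within 1.27 log2 units for Syt10, 0.35 for Ifi202b, 0.64 for Kcnj14 and 0.73 for Rab6b. Whether strain alleles, probe hybridisation or expression in the tissue set these levels was not tested, since neither genotypes nor probe sequences were used here.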

How the data were processed

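Ventricular RNA of 16 female mice was hybridised to one-colour Agilent arrays on 2 slides, each with 2 arrays of every group. The deposited scanner files hold intensity values. Per the file headers they were extracted with Feature Extraction 10.7.3.1 from a probe design on mouse build mm9. The processed signal in them was already background-corrected by that software, per the file headers. The authors' deposited value table holds log2 values. It correlated at r = 1 with the levels used here less the nulliparous WT mean over 11005 bright probes, with column medians from -0.382 to 0.0318, which settled its scale, centring and direction.

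Each level is log2 of the processed signal, from which the 75th percentile of log2 signals of an array's non-control probes was taken. Spots of a probe were averaged, and a gene was read from its brightest probe. A gene was tested where some group had its probe well above background on each of 4 arrays, as 14059 of 21154 genes did, and 88 with an outlier value stayed out of the counts of steps and likeness. Probes were named through their RefSeq accessions, and gene order is that of GRCm38.p6. Tests used limma 3.58.1 in R 4.3.3, with 4 group means over 16 arrays and 12 residual degrees of freedom, Benjamini-Hochberg adjustment over all tested genes and calls at an adjusted p under 0.05. The figures were drawn with matplotlib 3.10.9. The number of arrays limits the precision.

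The genes named beside the members are the 5 most alike, those within 10 places in gene order, members of the family lists and those past an absolute r of 0.8 on the same chromosome. The stretches of chromosomes 8 and 4, the interval probes and Pttg1 were named after their values were seen. The ends of the chromosome 7 stretch were likewise set from the values. Some genes that this rule or a list holds are not reported here. The members and lists were chosen with earlier results of these data known. Replicate numbers were not treated as pairs of mice in the main fit. Of 24 same-numbered pairs, 8 had deviations correlated above 0.1, over a range of -0.14 to 0.18. Differently numbered pairs were not compared with them, so these values cannot settle whether the numbers pair the mice. Alternatives were median centring, normexp with an offset of 50 on the spots' median signals, other filters, the mean of a gene's probes, the authors' table, slide and replicate blocks, array weights, a fit of the compared groups only and leaving out each array. The count of genes at 2 levels without nulliparous KO replicate 4 was added after seeing the data.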

Additional observations from a re-analysis of the deposited data

Results flagged for a closer look

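In 24 sets of 4 arrays, 1 for each probe and group, the lone highest or lowest array was compared with the other 3 as a share of the whole range, by Dixon's test at the 95% level. Chance passes about 1 in 20 such sets, but these genes were chosen because arrays of one group lay far apart, so the values describe that choice and support nothing. For the brighter Kcnj14 probe, lactating WT replicate 1 stood off by 0.938 of the range and nulliparous KO replicate 4 by 0.884, and for the second probe the same arrays stood off by 0.851 and 0.866. For Rab6b, lactating KO replicate 2 stood off by 0.882 of the range. The probes of Kcnj14 measure the same RNA samples, so their values are not independent.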

How the results depend on the processing

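Group differences, steps and counts of calls other than those given here kept their direction and side of the threshold, or stayed within 1.5 times for counts, under the alternatives run. Syt10 met the description of 2 levels with normexp, with a step of 3.19. For Syt10, lactating less nulliparous KO was -5.60 (limma adjusted p = 0.062) when only the compared groups were fitted. Array weights gave 0.12 for Syt10 in nulliparous KO less WT, -7.30 (adjusted p = 0.0164) for Syt10 in lactating KO less WT, -0.69 and 1.28 for the interaction of Kcnj14 and of Rab6b, and 3.05 (adjusted p = 0.0496) for Rab6b in lactating less nulliparous KO. With slide as a block, Ifi202b in lactating less nulliparous KO was -3.14 (adjusted p = 0.0481). Ifi202b in nulliparous KO less WT was 0.06 with median centring, 0.02 with normexp, 0.07 with the mean of probes and 0.01 in the authors' table. Its largest step was 2.02 with normexp, which also gave 94 genes at 2 levels in place of 161, and 68 were left without nulliparous KO replicate 4. With no filter, 6 genes were called in nulliparous KO less WT in place of 14, and 17 in lactating KO less WT in place of 28. With the replicate number as a block 9 were called in nulliparous KO less WT, and no call of the 4 genes changed. Leaving out 1 array at a time gave ranges of -1.5 to 0.37 for Syt10 in nulliparous KO less WT, -8.96 to -5.91 for Syt10 in lactating KO less WT, -0.27 to 0.38 for Ifi202b in lactating less nulliparous WT, -4.5 to -1.92 for Ifi202b in lactating less nulliparous KO and -0.16 to 0.13 for Ifi202b in nulliparous KO less WT. The ranges were -1.66 to 0.07 for Kcnj14 in nulliparous KO less WT and -1.95 to 0.34 for Kcnj14 in lactating KO less WT. For the interaction they were -0.78 to 1.51 for Kcnj14 and -1.9 to 0.39 for Rab6b. The step of Ifi202b ran from 0.5 to 6.01. It was 0.5 when either low array was left out, because a step needs at least 2 arrays on each side. The other low array was then alone, and its distance from the rest was not counted. In lactating less nulliparous WT 63.3% of called genes were higher, or 80.4% with median centring and 46.2% with no filter. Median centring moved the median of all genes to 0.28 in that comparison, against 0.10, and to 0.24 in lactating less nulliparous KO, against 0.06. The cause of these changes was not tested.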
